A study of Saccharomyces cerevisiae with 8 samples.

Results

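The peaks described here are those of the yeast transcription factor Gcr1 near chromosome ends. They are the listed ChIP-seq peaks on nuclear chromosomes of Saccharomyces cerevisiae whose centre lay within 30 kb of either end, without peaks within 500 bp of an annotated tRNA gene. They make up 238 of the 1064 peaks in 4 lists: 97 of 299 in each list of Gcr1(U) and 22 of 233 in each list of Gcr1(S). They stand for 101 different places, 79 listed in Gcr1(U) alone, 18 in both forms and 4 in Gcr1(S) alone. The rule for choosing them from the lists used position only. Whether a peak was listed at all depended on the authors' peak calling, which rests on tag counts.

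Gcr1(U) and Gcr1(S) are the 2 forms that differ by the processing of the GCR1 intron. The Gcr1(U) strain, JHY9311, carried GCR1U-TAP::his3MX6 and the Gcr1(S) strain, JHY9321, carried GCR1S-TAP::his3MX6, and both also carried GCR2-5Flag::hphMX6 in the BY4741 background. Cells grew in YPD medium with 2% glucose at 30 °C and were sampled at 6 h, labelled exponential phase, or at 12 h, labelled diauxic shift, with 2 replicates in each of the 4 groups. Each group has 1 peak list and no value per replicate, so no difference below has a replicate error. Neither an input nor an untagged strain was analysed here. Bracketed ranges are exact binomial 95% intervals of a ratio and cover counting error only.

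A tandem affinity purification (TAP) tag binds the IgG beads on which chromatin was recovered. Gcr1 is best known as the activator of glycolytic genes, where it acts together with Rap1. Rap1 is also the protein that coats the telomere repeats at chromosome ends in budding yeast. The DNA next to the telomeres, the subtelomere, holds few essential genes, is partly silenced by Sir proteins, and carries gene families and Y' elements in near-identical copies on many ends. Reads that match several copies cannot be told apart, and the sources used here do not say how the authors placed them. This bears on every value in the PAU, COS, YRF1, HXT, MAL and FLO families below. It may also bear on the other values, among them those at the tips, at genes with only a systematic name and at IMD2. Which members lie in such copies was not tested. No sequence of the peaks is shown, because no genome sequence was used here.

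Gcr1(U) had most of the subtelomeric peaks when whole lists were counted. They were 35.7% of its 272 nuclear peaks and 10.6% of the 207 of Gcr1(S). Many were low: 62 of the 80 not shared with Gcr1(S) at 6 h lay under its lowest nuclear value, 161.1 tags. At 12 h 75 of 79 lay under 169.3. Among the upper 50% of each list by findPeaks score, Gcr1(U) kept 7 subtelomeric peaks at either time. Gcr1(S) kept 4 at 6 h but 10 at 12 h, more than Gcr1(U). In Gcr1(U) 60 of the 97 lay within 10 kb of the end at either time, 23 at 6 h and 24 at 12 h lay between 10 and 20 kb, and 14 and 13 lay between 20 and 30 kb. This equals 18.8, 7.19 and 4.38 peaks per 100 kb in the 3 bands at 6 h, against 0.693 interior peaks per 100 kb. Interior here means a nuclear peak more than 30 kb from an end and away from tRNA genes. In Gcr1(S) the bands held 16, 3 and 3 peaks, or 5.00, 0.938 and 0.938 per 100 kb, against 0.603 for interior peaks.

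Of the 32 chromosome ends, 31 had a member listed for Gcr1(U) and 16 for Gcr1(S). The end without a member in the Gcr1(U) lists was the right end of chromosome IX, which had none in Gcr1(S) either. The left end of chromosome I had the most in Gcr1(U), with 9. Ends with 5 or more members numbered 8 for Gcr1(U) and 0 for Gcr1(S), where the right end of chromosome VIII led with 4. Members often lay close together: 48 of 97 in Gcr1(U) (49.5%) had another nuclear peak within 1500 bp of their centre, against 18 of 77 interior peaks (23.4%). In Gcr1(S) these counts were 3 of 22 and 0 of 67. Peak density was higher near the ends, and these shares were not corrected for it. At 6 h the Gcr1(U) peak just inside the 30 kb limit lay in HPF1 at 29012 bp, with 234.8 tags, and the first outside at 30883 bp, with 191.2. For Gcr1(S) they lay near KAR4 at 29282 bp, with 378.5 tags, and at 31594 bp, with 384.5.

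**Figure D1:**
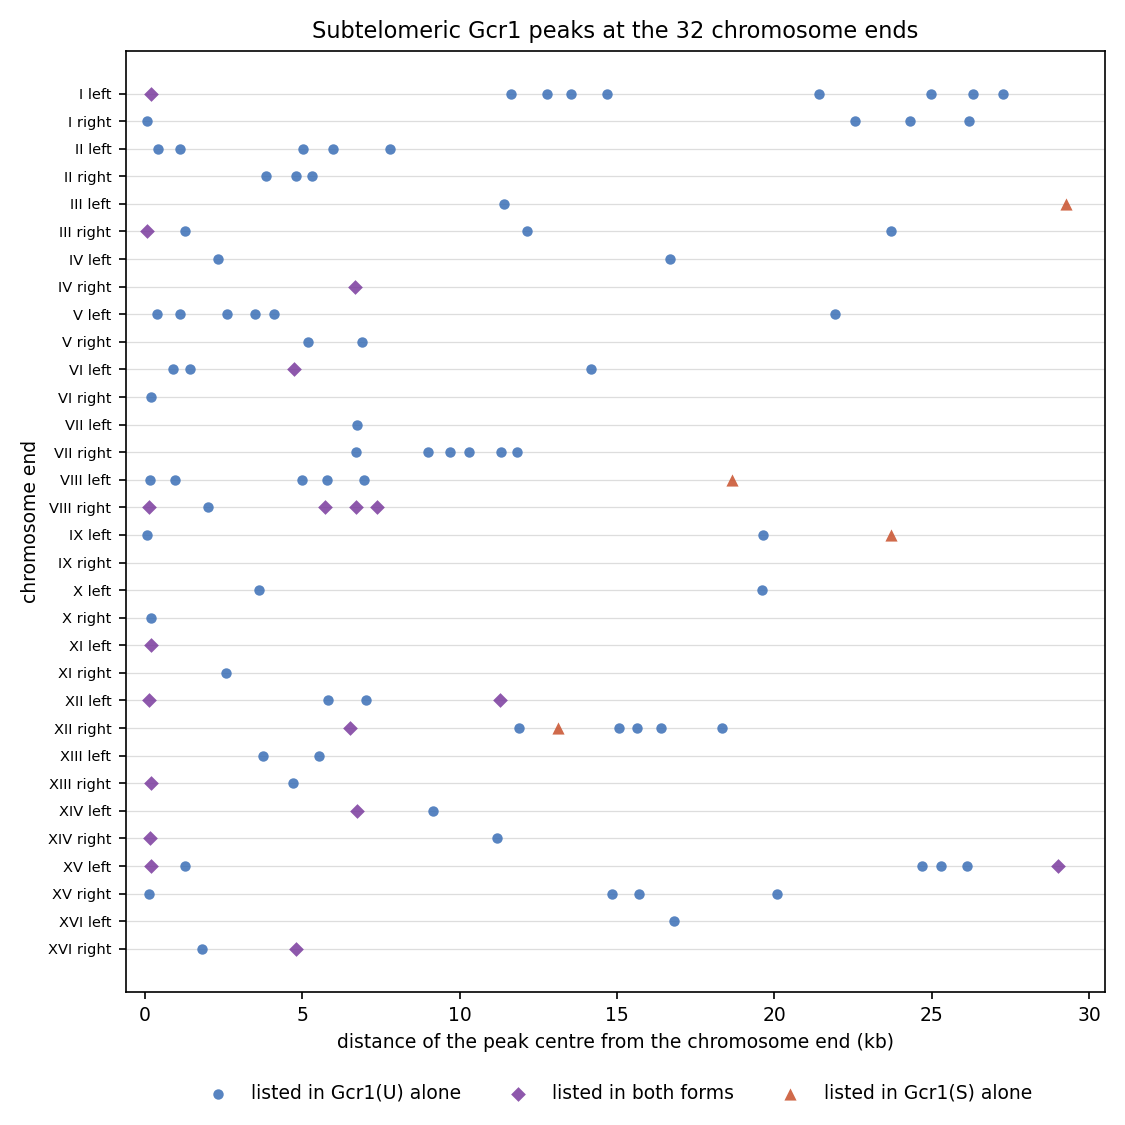
Each row is 1 of the 32 chromosome ends and each symbol a subtelomeric peak, placed by the distance of its centre from that end in kb. Circles are the 79 places listed in Gcr1(U) alone, diamonds the 18 in both forms and triangles the 4 in Gcr1(S) alone, with the right end of chromosome IX empty.

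Peaks at the very tip were frequent. In Gcr1(U) 16 ends had a peak centred within 500 bp of the last base, and 8 of these ends had one in Gcr1(S) too: the left ends of I, XI, XII and XV and the right ends of III, VIII, XIII and XIV. Those 16 had 77.3 to 708.3 normalized tags in Gcr1(U) at 6 h, with a median of 222.1, while the 81 members farther in had a median of 125.2. At 12 h the medians were 200.4 and 117.1. In Gcr1(S) the 8 terminal peaks had a median of 238.2 tags at 6 h and 246.2 at 12 h, and the other 14 members 270.0 and 228.1. The terminal peaks of Gcr1(U) were therefore higher than its other members at both times, while in Gcr1(S) the order of the medians differed between the times.

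The tallest member in all 4 lists lay at the right tip of chromosome VIII (VIII 562417 to 562599), 135 bp from the end and 461 bp past YHR219W. Gcr1(U) had 708.3 tags there at 6 h and 906.1 later, and Gcr1(S) 909.6 and then 771.6. The best rank of any subtelomeric peak among the nuclear peaks, in the same order, was 15, 8, 12 and 23. The right tip of chromosome XIV (XIV 784094 to 784276), 148 bp from the end and 644 bp upstream of YNR077C, had 556.1, 747.4, 847.3 and 633.2 tags. In both places the 6 h list of Gcr1(U) gave the lowest value and that of Gcr1(S) the highest. The Gcr1(U) peak nearest to an end, at the left tip of IX (IX 1 to 100), had 77.3 tags at 6 h and 113.9 at the later time. Its window stops at the chromosome end and is shorter than the usual 182 bp. The nearest of Gcr1(S) at 6 h lay on the right tip of III, upstream of YCR108C, at 76.5 bp from the end. The tags there were 228.6 and at 12 h 225.1, and Gcr1(U) had 231.1 and 210.6. At 12 h the nearest of Gcr1(S) lay at the left tip of XV, 52 bp from the end.

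The other terminal places common to both forms were lower. Near PAU8 at the left tip of I the tags were 232.4 and 217.3 for Gcr1(U), and 194.6 and 184.7 for Gcr1(S). Near PAU16 at the left tip of XI they were 211.1, 203.5, 199.7 and 210.5 in the same order, and near YLL067C at the left tip of XII 226.1, 245.8, 221.1 and 252.6. Near PAU19 at the right tip of XIII they were 282.7, 251.8, 289.6 and 270.7, and near YOL166W-A at the left tip of XV 230.8, 281.5, 247.7 and 239.7. These 5 tips, unlike those of VIII and XIV, stayed within 184.7 and 289.6 tags in every list.

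Away from the tips 10 places were listed in both forms. Of these, 3 lay near YRF1 genes and 3 at IMD2, and are described with those genes, and the other 4 follow. A peak 883 bp upstream of YFL064C (VI 4638 to 4820) had 359.3 and 362.6 tags for Gcr1(U), and 370.6 and 308.5 for Gcr1(S). A peak inside YPR202W on XVI (943165 to 943347) had 206.1 and 194.7, and 247.7 and 186.5. A peak inside HPF1, which encodes a mannoprotein of the cell wall, had 234.8 and 195.0, and 230.0 and 189.9. The peak on the left of XII, 1439 bp upstream of YLL066C (XII 11184 to 11366), had 387.0 and 457.5 tags for Gcr1(U) and 531.6 and 446.8 for Gcr1(S).

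Several ends had a peak between 6.4 and 7.0 kb from the tip. This band was picked out after the values were seen. At 6 h Gcr1(U) had 8 members from 5 to 6 kb and 8 from 6 to 7 kb, so its count there was no higher than in the next kb. For Gcr1(S) these counts were 1 and 4. In Gcr1(U) 8 ends had a peak there, and in Gcr1(S) 4 ends. Several of these peaks stood upstream of a YRF1 gene, which encodes the helicase of the Y' element. Relative to the start codon the centre of the Gcr1(U) peak lay at -634 bp in YRF1-3 (VII 1084139 to 1084321), -638 bp in YRF1-6 (XIV 6645 to 6827) and -863 bp in YRF1-5 (XII 1071554 to 1071736). Near YRF1-1 the Gcr1(U) peak (IV 1525155 to 1525337) was centred at -1075 bp and the Gcr1(S) peak at -884 bp. Their intervals did not overlap at 6 h and did at 12 h.

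At YRF1-3 Gcr1(U) had 173.2 tags at 6 h and 155.5 at 12 h, with no peak listed in Gcr1(S). At YRF1-1 it had 207.1 and 227.1, and Gcr1(S) had 244.9 and 233.7. At YRF1-6 the values were 180.8 and 196.1 for Gcr1(U), and 232.8 and 202.8 for Gcr1(S). At YRF1-5 they were 319.7 and 331.2 for Gcr1(U), and 183.9 and 190.7 for Gcr1(S), whose lowest member at 6 h this was. The other places of the band in Gcr1(U) were upstream of PAU11, inside COS8, at the 3' end of IMD2 and near YER188C-A.

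In Gcr1(U) at 6 h 47 of the 97 members were centred inside an annotated gene, 27 lay outside genes but within the promoter range, and 23 lay elsewhere between genes. The promoter range here runs from 1000 bp upstream to 200 bp downstream of a start codon. The share inside genes was 48.5%, against 55.8% of interior peaks, but the share between genes and outside any promoter range was 23.7% against 2.60%. In Gcr1(S) at 6 h 4 members were inside genes (18.2%, against 40.3% of interior peaks), 8 in promoter ranges and 10 elsewhere (45.5% against 5.97%). Of the 47 inside genes 23 were in genes with only a systematic name. YEL077C, at the left end of V, held 5 peaks with 116.6 to 149.5 tags at 6 h.

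**Figure D2:**
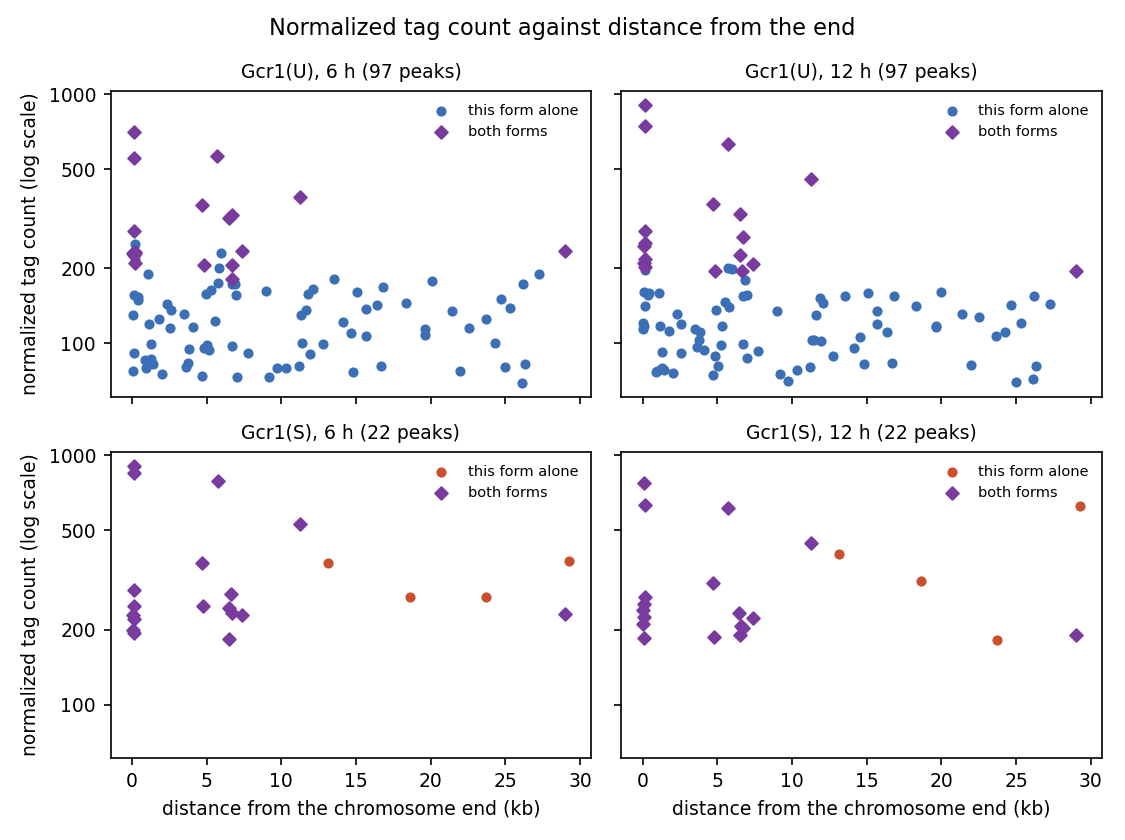
Each panel is 1 list, with the distance from the chromosome end in kb on the x axis and the normalized tag count on a log y axis. Diamonds are places listed in both forms and circles places of that form alone. The 4 tallest shared places lie at the tip and at 5715 and 11275 bp, KAR4 at 29282 bp is the tallest place of Gcr1(S) alone, and the Gcr1(U) panels hold peaks from 69.6 tags upward where the Gcr1(S) panels begin at 183.9 and 181.3.

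Gene families were followed with 16 lists of genes known from subtelomeres. Of 377 protein-coding genes that start within 30 kb of an end, 62 (16.4%) had a member in their promoter range or body in Gcr1(U), and 12 (3.18%) in Gcr1(S). Of the 104 such genes on the lists, 26 (25.0%) had a peak of Gcr1(U) at 6 h and 4 (3.85%) one of Gcr1(S). At 12 h they were 27 and 4, since the Gcr1(U) peak near YRF1-1 then lay in the promoter range. The genes of Gcr1(S) were IMD2, YRF1-1, YRF1-5 and YRF1-6, all of which also had a Gcr1(U) peak at 12 h. At 6 h the count in Gcr1(U) fell to 16 with the promoter range alone and rose to 36 with the nearest gene.

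FLO1 and FLO9 encode flocculins, adhesins that hold yeast cells together in clumps, and were 2 of the 3 flocculin genes within 30 kb. Each held 3 peaks of Gcr1(U), all inside the gene. In FLO9 they were centred 694, 1655 and 2988 bp from the start codon, with 189.8, 82.6 and 80.3 tags at 6 h and 143.9, 81.1 and 69.8 at 12 h. In FLO1 they were centred 620, 2506 and 4264 bp from it, with 173.2, 100.2 and 115.6 tags at 6 h and 155.2, 111.5 and 127.7 at 12 h. In both genes the peak nearest the start codon was the highest.

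Hexose transporters had 4 of 7 genes with a peak in Gcr1(U): HXT9, HXT11, HXT13 and HXT17. HXT11 had a peak at -577 bp from its start codon, in a region shared with the divergent isomaltase gene IMA2, with 150.2 tags at 6 h and 142.8 at 12 h. It had another at 32 bp past the start codon, with 138.2 and 120.3 tags, and one at 861 bp, with 69.6 and 72.3. The last is the lowest value of any nuclear peak in Gcr1(U) at 6 h. HXT9 had its peak 110 bp past the start codon, with 114.6 and 117.5 tags, and HXT13 and HXT17 had theirs at 1292 and 499 bp, with 77.6 and 81.3 tags at 6 h. No gene of this list had a peak in Gcr1(S), but none of these values reached 161.1, the lowest nuclear value listed for Gcr1(S) at 6 h. The whole list, which includes mitochondrial peaks, went down to 107.5 tags.

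Seripauperins, the PAU genes, encode small mannoprotein-like proteins made in cells short of oxygen. Of 19 within 30 kb, 5 had a Gcr1(U) peak: PAU4, PAU9, PAU11, PAU12 and PAU24. PAU9 and PAU11 had theirs 42 and 79 bp upstream of the start codon, with 91.6 and 97.6 tags at 6 h. PAU4 had peaks at 394 bp upstream and 181 bp inside, with 137.2 and 161.2 tags. PAU12 and PAU24, which stand next to the maltase genes MAL12 and MAL32 on different chromosomes, had peaks at matching places. These were 695 and 687 bp upstream of the start codon, and 342 and 294 bp past it. Another matching pair lay 761 bp past the end of MAL12 (157.5 tags at 6 h and 151.7 at 12 h) and 758 bp past the end of MAL32 (163.2 and 117.5 tags).

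Genes of the COS family, membrane proteins that help carry cargo to the vacuole, had a peak at 4 of 11: COS1, COS6, COS7 and COS8. All 4 had a peak inside the gene, centred 520 to 832 bp from the start codon, with 73.3 tags at COS1, 143.9 at COS7, 157.2 at COS8 and 162.2 at COS6 at 6 h. COS8 had another at -612 bp, which lies inside YHL048C-A, with 174.8 tags. Y' helicases had 5 of 8 genes with a Gcr1(U) peak at 6 h, 6 of 8 at 12 h, and 3 of 8 with a Gcr1(S) peak at either time. YRF1-2 had its Gcr1(U) peak 227 bp past the start codon, with 93.9 tags at 6 h, and YRF1-4 had one at -810 bp, inside YLR462W, with 90.9.

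Single genes of other lists had a peak in Gcr1(U). These were IMA2 of 13 maltose and isomaltose genes and THI13, a thiamine synthesis gene, of 8 vitamin genes. The peak inside THI13 had 81.6 tags at 6 h and 83.2 at 12 h. FEX1, a fluoride exporter, was the only member of the 7 export genes with a peak, 330 bp upstream with 76.9 tags. One peak between ERR3, related to enolase, and SNO4, of the HSP31 family, lay in the promoter range of both, at 376 and 633 bp upstream, with 74.3 tags at 6 h and 74.8 at 12 h. Some lists had 0 genes with a peak in the promoter range or body in either form. These were aryl alcohol dehydrogenases (5 genes within 30 kb), iron and copper uptake (8), acid phosphatases (3) and sorbitol and mannitol dehydrogenases (4). By nearest gene, 2 aryl alcohol dehydrogenases and 1 acid phosphatase had a Gcr1(U) peak, and 1 iron and copper uptake gene a Gcr1(S) peak. No DAN or TIR gene of the list lay within 30 kb.

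IMD2, which encodes IMP dehydrogenase of guanine nucleotide synthesis, stands at the right end of VIII, the end with the most Gcr1(S) peaks. Of the 4 genes on its list 3 were in the protein-coding annotation used, and of these IMD2 alone lay within 30 kb. In Gcr1(U) it held peaks 867 and 1537 bp from its start codon, and the next lay 961 bp past its end (VIII 556837 to 557019). The first had 234.1 and 207.4 tags for Gcr1(U), and 228.6 and 222.5 for Gcr1(S). The next had 328.0 and 268.4, and 277.9 and 207.1. The peak past the gene had 564.8 and 631.0 for Gcr1(U), and 790.9 and 614.3 for Gcr1(S), and was among the 4 highest members of every list.

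Both silent mating-type cassettes lie in the subtelomeres of chromosome III, and Gcr1(U) had a peak beside each. Near HML the peak (III 11332 to 11514) lay 80 bp past the end of YCL068C, with 100.6 tags at 6 h and 103.0 at 12 h. Near HMR the peak (III 292810 to 292992) lay 278 bp past the end of HMRA2 and at -934 bp from the start codon of HMRA1, with 125.5 and 106.9 tags. Neither was listed in Gcr1(S). Their ratios of the later to the earlier time were 1.02 (0.810 to 1.29) and 0.852 (0.687 to 1.07), and both intervals span 1. These 2 peaks were chosen for mention after their values were seen.

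Members were lower in tags than interior peaks in all 4 lists, by the median, and more often had a high fold over local background at 6 h. Their median in Gcr1(U) was 135.9 tags at 6 h and 120.6 at 12 h, against 315.7 and 290.3 for interior peaks and 324.2 and 405.1 for tRNA peaks. In Gcr1(S) the medians were 258.4 and 236.7 tags, against 420.4 and 609.2 for interior peaks and 449.7 and 220.0 for tRNA peaks. Below the median of all nuclear peaks were 91.8% and 93.8% of the Gcr1(U) members at the 2 times, and 81.8% and 54.5% of those of Gcr1(S). The authors' fold over local background had a median of 3.61 at the members of Gcr1(U) at 6 h, 2.85 at interior peaks and 2.24 at tRNA genes. A fold of 10 or more was listed for 19 of 97 members (19.6%), 3 of 77 interior peaks (3.90%) and 0 of 98 tRNA peaks. In Gcr1(S) at 6 h it was listed for 4 of 22 members (18.2%) and 4 of 67 interior peaks (5.97%).

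In Gcr1(U) at 6 h the highest folds belonged to low peaks. The left tip of IX had a fold of 1036 at 77.3 tags in Gcr1(U) at 6 h, the right tip of I a fold of 225 at 129.9 tags, and the peak at 861 bp in HXT11 a fold of 156 at 69.6 tags. THI13 followed with 51.7 at 81.6 tags and HXT9 with 26.0 at 114.6 tags. The focus ratio, which HOMER gives for how well the tags of both strands fit a single point source, was 0.9 or more at 17 of 97 members (17.5%), 6 of 77 interior peaks (7.79%) and 0 of 98 tRNA peaks. Of the 19 members with a fold of 10 or more, 14 also had such a focus ratio. Whether placement of reads among repeated copies has a part in these folds was not tested.

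The comparison of forms asks whether both were found at the same subtelomeric places. At 6 h 17 places overlapped, 17.5% of the Gcr1(U) members and 77.3% of those of Gcr1(S). Interior peaks overlapped at 39 places, 50.6% and 58.2% of the lists. At 12 h the members overlapped at 18 places, 18.6% and 81.8%. The lists of each form hold the same places at both times, so the overlap at 12 h is no separate count. The 17 shared members of Gcr1(U) had a median of 234.8 tags at 6 h and the 80 others one of 121.2.

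Depth limits what can be said of the peaks of Gcr1(U) alone. At 6 h 62 of those 80 (77.5%) lay under 161.1 tags, the lowest nuclear value listed for Gcr1(S), and at 12 h 75 of 79 (94.9%) lay under 169.3. For interior peaks of Gcr1(U) alone the shares were 55.3% and 60.5%. The whole Gcr1(S) list at 6 h, which includes mitochondrial peaks, went down to 107.5 tags, so 161.1 is not the floor of that list. The median of the 80 members of Gcr1(U) alone, 121.2, lies above 107.5. The 4 that lay above the limit at 12 h were at the right tip of VI near YFR057W (250.8 tags at 6 h and 197.2 at 12 h), upstream of YBL111C on II (231.1 and 199.6), near YLL066W-B on XII (200.5 and 201.7) and near YER188C-A on V (173.2 and 180.2). The other 75 lay under the lowest nuclear value of Gcr1(S) at 12 h. At 62 of the 79 places the tags lay under 161.1 at 6 h and under 169.3 at 12 h.

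The 4 places of Gcr1(S) alone lay between 13125 and 29282 bp from an end. Past the end of KAR4, a transcription factor gene of mating, by 346 bp (III 29197 to 29367) the tags were 378.5 and later 627.2. A peak 904 bp upstream of YLR462W (XII 1064967 to 1065137) had 369.6 and 402.1 tags. One 447 bp past ARN1, a siderophore transporter gene (VIII 18556 to 18726), had 270.9 and 313.6, and one inside CSS1 (IX 23618 to 23788) had 269.1 and 181.3. All 8 values exceed the lowest nuclear value of the Gcr1(U) lists, 69.6 tags at 6 h and 69.8 at 12 h. Their fold over local background in Gcr1(S) was 2.19 to 3.31 at 6 h.

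**Figure D3:**
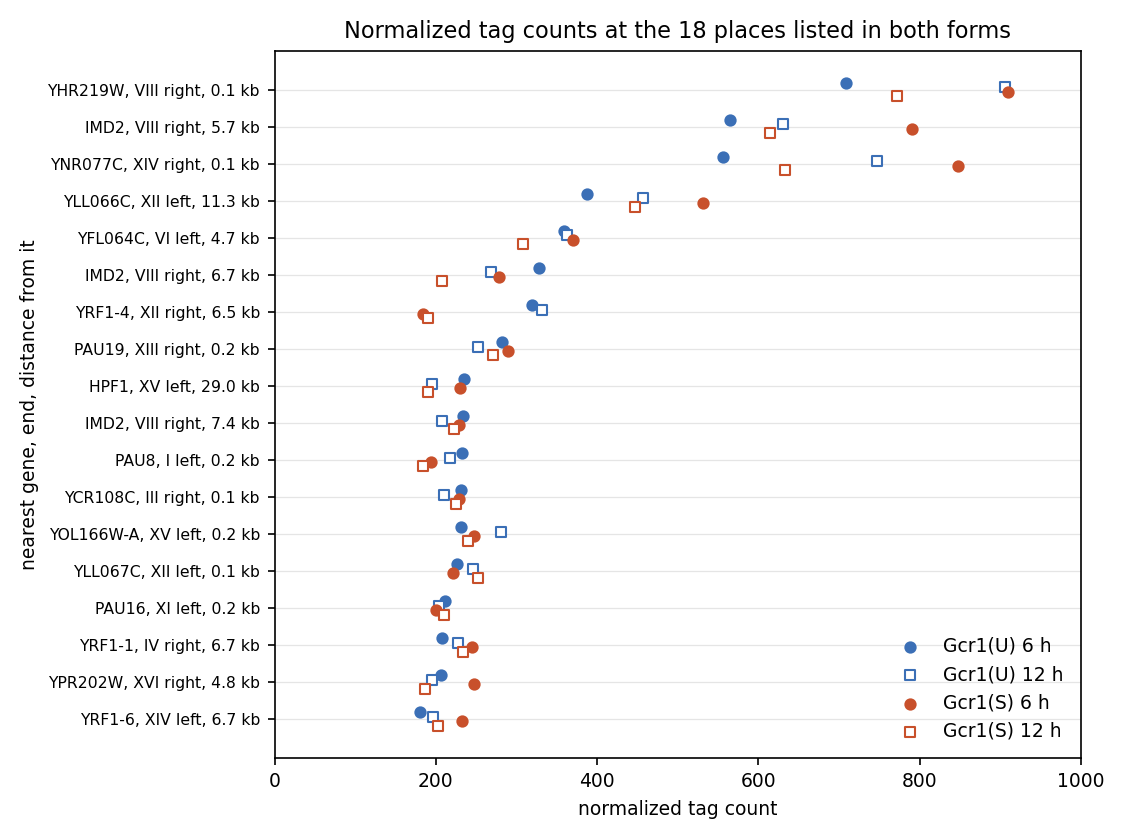
Normalized tag counts at the 18 places listed in both forms, ordered by the value in Gcr1(U) at 6 h. Blue is Gcr1(U) and orange Gcr1(S), filled circles are 6 h and open squares 12 h, and each label gives the nearest gene, the end and the distance (the peak labelled YRF1-4 is the one in the promoter range of YRF1-5). At the 4 tallest places Gcr1(S) at 6 h is the highest of the 4 values and Gcr1(U) at 6 h the lowest, and the other 14 lie between 180.8 and 370.6.

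The ratio of Gcr1(S) to Gcr1(U) at 6 h had a median log2 value of 0.03 (quartiles -0.03 and 0.36) over the 17 members, against 0.39 over all 137 shared nuclear peaks. Over the 39 shared interior peaks it was 0.01, close to that of the members, with 2 higher by at least 1.5-fold and 7 lower. Higher by at least 1.5-fold was 1 member of 17, against 14.6% of all shared nuclear peaks, and lower by that much was 1 of 17, against 5.84%. The member above the fold was the right tip of XIV, with a ratio of 1.52 (1.39 to 1.68). It was followed by the peak past IMD2 with 1.40 (1.27 to 1.54) and the peak on the left of XII, 1439 bp upstream of YLL066C, with 1.37 (1.22 to 1.54). The member below was YRF1-5 at 0.575 (0.486 to 0.682), followed by the left tip of I near PAU8 at 0.837 (0.702 to 0.997) and the 3' end of IMD2 at 0.847 (0.731 to 0.980). An interval above 1 was seen at 6 members, against 71.5% of shared nuclear peaks, and below 1 at 3, against 11.7%. Of the 39 interior peaks 13 had an interval above 1 and 13 below. Relative to the median of all shared nuclear peaks, 81 of which are tRNA peaks, the members' median was -0.36 and that of the interior peaks -0.38.

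At 12 h the members' median log2 ratio of Gcr1(S) to Gcr1(U) was -0.04 (quartiles -0.23 and 0.05) over 18 places, against -0.69 over 138 shared nuclear peaks and 0.95 over 39 interior ones. No member was higher by 1.5-fold, against 18.1% of all shared nuclear peaks, and 1 was lower, against 59.4%. YRF1-5 was again that member, at 0.576 (0.464 to 0.709), close to its ratio at 6 h. The next lowest were the 3' end of IMD2 at 0.772 (0.627 to 0.954) and the right tip of XIV at 0.847 (0.749 to 0.953). The highest were the right tip of XIII near PAU19 at 1.08 (0.888 to 1.30), the peak 867 bp into IMD2 at 1.07 (0.862 to 1.32) and the right tip of III at 1.07 (0.862 to 1.31), each with an interval that spans 1. An interval above 1 was seen at 0 members, against 19.6%, and below 1 at 4, against 66.7%. Relative to all shared nuclear peaks the median was 0.65, and per bp of window, which was 114 bp in Gcr1(S) and 168 bp in Gcr1(U), it was 0.52.

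The comparison of times asks whether the tags at listed peaks changed between 6 h and 12 h. Each form lists the same places at both times, so a peak gained or lost between them could not be seen. In Gcr1(U) the median log2 ratio of 12 h to 6 h was -0.05 (quartiles -0.18 and 0.06) over 97 members, against -0.14 (quartiles -0.46 and 0.11) over 77 interior peaks and 0.33 over 98 tRNA peaks. No member was higher by 1.5-fold, against 2.94% of all 272 nuclear peaks, and none was lower, against 4.04%. An interval above 1 was seen at 7 members (36.4% of all nuclear peaks) and below 1 at 11 (14.3%). At 79 members the interval spanned 1. A fall of 1.5-fold could be listed for the 65 members with at least 104.7 tags at 6 h, which is 1.5 times the lowest nuclear value at 12 h, and 0 of these fell that far. Of 67 interior peaks above the same limit 11 did.

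The largest ratios of Gcr1(U) were at chromosome tips. The left tip of IX had 1.47 (1.15 to 1.88), the right tip of XIV 1.34 (1.23 to 1.47) and the right tip of VIII 1.28 (1.18 to 1.39). The smallest were beside MAL32 at 0.720 (0.589 to 0.882), at the right tip of X near COS5 at 0.737 (0.621 to 0.877), from 218.1 to 160.8 tags, and at 694 bp in FLO9 at 0.758 (0.630 to 0.911). Tips were thus among both the largest and the smallest ratios. The 16 terminal peaks had a median log2 ratio of 0.00 (quartiles -0.14 and 0.30), with 5 intervals above 1 and 2 below, and the 3 distance bands had medians of -0.05, -0.03 and -0.11 from the tip inward.

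In Gcr1(S) the members' median log2 ratio of 12 h to 6 h was -0.09 (quartiles -0.27 and 0.03) over 22, against 0.48 over 67 interior peaks, -1.04 over 118 tRNA peaks and -0.84 over all 207 nuclear peaks. Higher by 1.5-fold was 1 member, against 14.0% of all nuclear peaks, and 0 were lower, against 59.4%. The member was the peak past KAR4, with a ratio of 1.66 (1.43 to 1.91). The next were the peak past ARN1 at 1.16 (0.954 to 1.39) and the left tip of XII at 1.14 (0.925 to 1.41), both with an interval that spans 1. The smallest ratios were at CSS1, 0.674 (0.537 to 0.849), at the 3' end of IMD2, 0.745 (0.602 to 0.929), and at the right tip of XIV, 0.747 (0.659 to 0.843).

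The fall of a Gcr1(S) member is limited by the lists. Only 11 of the 22 had at least 253.95 tags at 6 h, 1.5 times the lowest nuclear value at 12 h, and 0 of these 11 fell by 1.5-fold, with a median log2 ratio of -0.25. Among tRNA peaks all 118 were above this limit and 117 fell that far. An interval below 1 was seen at 8 members, against 66.2% of all nuclear peaks, and above 1 at 1, against 21.3%. Relative to the median of all nuclear peaks, most of which are tRNA peaks, the members' median was 0.76, and per bp of window it was 0.44, since the window was 170 bp at 6 h and 114 bp at 12 h. The sign of the members' change in Gcr1(S) thus flips with the scaling.

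**Figure D4:**
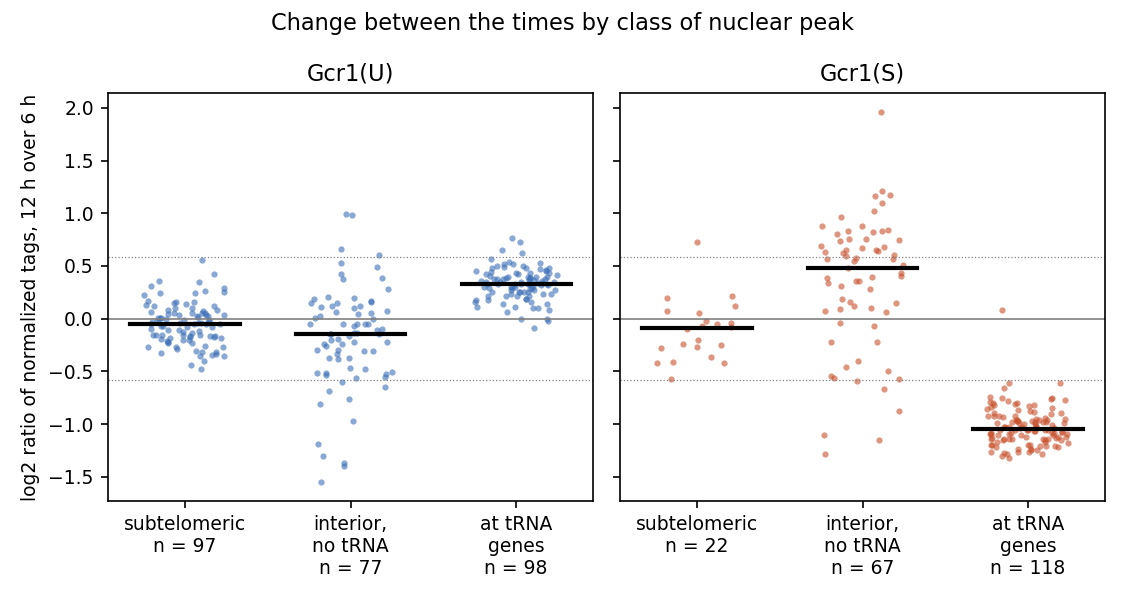
Each point is a nuclear peak, with the log2 ratio of normalized tags at 12 h to 6 h on the y axis, by class, for Gcr1(U) on the left and Gcr1(S) on the right. Bars are medians, the solid line is no change and dotted lines mark 1.5-fold. Subtelomeric medians are -0.05 and -0.09, tRNA peaks are at 0.33 and -1.04, and interior peaks at -0.14 and 0.48.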

How the data were processed

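Chromatin of 8 samples, 2 per form and time, was immunoprecipitated and sequenced, and the 4 peak lists deposited by the authors, 1 per form and time, were used. The build was sacCer3, per the submitters' processing notes, which name BWA 0.7.15, HOMER, Picard 2.92, bedtools, FastQC 0.10.1 and bcl2fastq 1.8.2 in no order. HOMER findPeaks made the lists, per the file headers. The signal the authors deposited is the normalized tag count per peak, and the score is the findPeaks score, used to rank peaks within a list. The fold (a ratio over local background), the focus ratio (a fraction), the p-value against local background and the clonal fold change are the authors' values, and the last pair is not reported here. The sources used here do not say how replicates were combined.

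Distances were taken from peak centres with the chromosome lengths of sacCer3. Genes came from the RefSeq table of R64, with 6002 nuclear protein-coding and 275 nuclear tRNA genes, and strand was read from the systematic name. All annotated genes and peaks lay inside those lengths, and the last on each chromosome lay 0 to 2476 bp from its right end. Forms were compared at peaks that overlap by at least 1 bp. In each form both times list the same number of peaks, each overlapping its counterpart, so a peak is matched by its place in the list.

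Ratios are of normalized tag counts. The values lay on a grid of 0.5 tags, with 98.3 to 99.7% within 0.05 units of a step and 11.7 to 30.1% by chance, which gave 1.50 and 1.42 tags per unit in Gcr1(U) at 6 h and 12 h, and 1.07 and 0.582 in Gcr1(S), the shallowest list being the last. These rest on the step and the exact binomial intervals cover counting error only, since PCR reads are not independent molecules. With 1 list per group no test across conditions was possible, and peaks are not replicates, so a peak counts as higher or lower from 1.5-fold, beside the share of all matched nuclear peaks past that fold. Scripts were tested on simulated data with Python 3.11.15, numpy 2.4.6, pandas 2.3.3 and scipy 1.17.1.

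The places described and the gene lists were chosen with earlier results of these data known. Named places are the 5 highest of each list, all those in both forms, the 3 highest and lowest ratios per comparison, all assigned to a listed gene, and the peak nearest an end.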

Additional observations from a re-analysis of the deposited data

Results flagged for a closer look

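At 4 places listed in both forms the tags went up from 6 h to 12 h for Gcr1(U) and down for Gcr1(S), with the interval of each ratio wholly on its side of 1. The difference between the forms was not tested, since each form has 1 list per time. At the right tip of VIII the ratio of 12 h to 6 h was 1.28 for Gcr1(U) and 0.848 for Gcr1(S). At the right tip of XIV it was 1.34 and 0.747. At the peak past the end of IMD2 it was 1.12 and 0.777, and at the peak upstream of YLL066C on XII it was 1.18 and 0.840. The fall in Gcr1(S) depends on the scaling. Per bp of window its ratios were 1.26, 1.11, 1.16 and 1.25 in the order above, and relative to all matched nuclear peaks 1.52, 1.34, 1.39 and 1.51. On both scales the ratios of Gcr1(U) also stayed above 1, so the directions of the forms were then no longer opposite. These are the 4 shared places with the most tags in Gcr1(U) at 6 h, where counting error is smallest.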

How the results depend on the processing

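Of 104 alternative values 66 stayed close, counts within 1.5 times, and 38 moved. The 97 places of Gcr1(U) became 60 within 10 kb at both times, and among the upper 50% of each list by score 7 at both times. In the upper 50% the 22 of Gcr1(S) became 4 at 6 h and 10 at 12 h, and the shared places became 4 and 5. Centring on all matched nuclear peaks turned the median log2 ratio of 12 h to 6 h in Gcr1(S) to 0.76, with 15 places higher by 1.5-fold, and tags per bp to 0.44, with 7. Fold over local background gave 2 higher and 1 lower there, and 0 were higher within 10 kb or in the upper 50%. In Gcr1(U) 1 place was higher between the times per bp, and 4 were higher and 1 lower by fold over local background. For the forms at 6 h the median was -0.36 centred, 0.41 by fold over local background and 0.47 in the upper 50%. Centred, 0 places were higher and 3 lower, 5 were higher by fold over local background, and 0 lower in the upper 50%. At 12 h the median was 0.65 centred, 0.52 per bp and 0.37 by fold over local background, with 11, 6 and 4 places higher. None was lower by these 3, nor (0) in the upper 50%. Listed genes with a peak numbered 16 in Gcr1(U) by promoter range alone and 8 in Gcr1(S) by nearest gene. The restriction to places at least 1.5 times above the lowest listed value was chosen after seeing the data and left the 4 medians between -0.25 and 0.20. The cause of these changes was not tested, except that stricter sets hold fewer peaks.

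No paired analysis was possible because the lists hold no value per replicate, and leaving out a replicate was not run for the same reason. Search for sequence motifs and for copies of the peak windows was not run, since no genome sequence was used here.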
